A study of Mus musculus with 6 samples.

Results

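The genes described here are 29 genes of cholesterol synthesis, its control and cholesterol transport, found by their Entrez IDs among 24415 gene rows, and all 29 had enough counts to be tested. They were measured by RNA sequencing in inguinal white fat, a depot under the skin, from 3 Hsp20 KO mice and 3 WT mice. All 6 mice were 12 weeks old, on a C57BL/6 background and not fasted. Hsp20 is a small heat shock protein encoded by Hspb6, and the labels do not give the design of the knockout allele or its breeding. The comparison is between mice labelled Hsp20 KO and mice labelled WT.

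The libraries held 27937060, 21294967 and 14078936 counts in Hsp20 KO replicates 1 to 3, against 26146472, 29809479 and 32648746 in WT replicates 1 to 3. Values in CPM below are counts relative to the library's total after TMM scaling, which sets libraries of different composition on 1 scale. Hspb6 itself had 8.86, 1.51 and 3.94 CPM in the libraries labelled Hsp20 KO replicates 1 to 3, against 12.6, 9.43 and 8.95 CPM in WT replicates 1 to 3, and was not called lower (log2 change -1.08 ± 0.51 SE, edgeR adjusted p = 0.227). In the targeted gene the first of these, the library labelled Hsp20 KO replicate 1, lay close to the lowest WT library, and counts of cholesterol genes are also given without it. Hspb6 was called lower in 1 of the 13 alternative settings described below, over which its log2 change ran from -1.99 to -0.64. All 10 adipocyte markers examined, such as Adipoq and Plin1, were counted in every library, with a summed level of 15368 to 21348 CPM in Hsp20 KO and 19933 to 22350 CPM in WT. Of these 10 markers, 5 had a positive and 5 a negative log2 change, so the sum hides shifts in both directions. In whole tissue, fewer cells of a type and less RNA per cell cannot be told apart.

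Cells make cholesterol from acetyl-CoA through mevalonate, farnesyl diphosphate, squalene and lanosterol, and the enzymes of this route are known as targets of the transcription factor SREBP-2, encoded by Srebf2. Scap carries the SREBP precursor out of the endoplasmic reticulum when membrane sterol is low, and the Insig proteins hold it back when sterol is high. Sterol in excess is also sensed as oxysterols by the liver X receptors, which induce the exporters Abca1 and Abcg1. White fat stores a large pool of unesterified cholesterol, much of it taken up from lipoproteins rather than made in place.

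SREBP proteins are known to act at sterol regulatory elements together with the factor NF-Y, which binds the CCAAT box, so the sequence before the start of each gene was searched for both. RefSeq promoters of build GRCm38.p6, 250 bases before to 50 after a start, were at hand for 23 of the 29 genes, all but Abcg1, Fdft1, Fdps, Npc1, Sqle and Stard4. A CCAAT box on either strand was found in 19 of the 23 genes (82.6%), against 42.6% of 12404 tested genes with a promoter. The sterol regulatory element, searched as TCACNCCAC on both strands, was found in Hmgcs1 only (4.35% of the 23 genes, against 1.40% of the tested genes), and its shorter core CACNCCAC, which lies inside it, in Acat2, Hmgcs1 and Insig1 (13.0% against 7.72%). Searches for direct repeats bound by liver X receptors, as AGGTCA or AGTTCA repeated after a gap of 4 bases, on both strands, found no exact match. With up to 2 mismatches 1 of the 23 genes, Dhcr7, held the repeat of AGGTCA (4.35% against 2.79%), and 0 held that of AGTTCA (0% against 1.77%). These matches are descriptions of letters, not of bound sites. The windows below are shown because they hold the sterol regulatory element (Hmgcs1), belong to genes that rose in Hsp20 KO mice (Lss, Nsdhl and Acat2), or belong to the gene with the highest log2 change (Insig1). Each runs toward the start of the promoter entry from up to 250 bases before it, and exons annotated by GENCODE are left out. The Lss window ends past the RefSeq gene start at 76531565, so its last bases lie within that gene. Capitals mark the CCAAT box (ATTGG where it is on the other strand), the sterol regulatory element in Hmgcs1 and the core in Acat2. The core match of Insig1 lies outside the stretch printed.
Hmgcs1 (chr13:119690101-119690350, plus strand): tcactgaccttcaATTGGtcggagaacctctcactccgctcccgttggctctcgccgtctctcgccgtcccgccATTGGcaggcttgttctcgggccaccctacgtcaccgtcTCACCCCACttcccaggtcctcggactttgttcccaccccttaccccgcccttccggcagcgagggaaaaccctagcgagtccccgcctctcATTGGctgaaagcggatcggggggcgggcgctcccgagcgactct
Lss (chr10:76531355-76531587, plus strand): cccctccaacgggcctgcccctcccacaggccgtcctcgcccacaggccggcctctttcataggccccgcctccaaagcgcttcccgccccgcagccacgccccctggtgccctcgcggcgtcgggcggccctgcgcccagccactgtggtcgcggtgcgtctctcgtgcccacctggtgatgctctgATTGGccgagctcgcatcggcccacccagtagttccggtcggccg
Nsdhl (chrX:72918412-72918520, plus strand): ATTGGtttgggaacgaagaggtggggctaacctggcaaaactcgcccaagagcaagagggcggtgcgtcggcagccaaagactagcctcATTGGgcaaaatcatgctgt
Acat2 (chr17:12960748-12960975, minus strand): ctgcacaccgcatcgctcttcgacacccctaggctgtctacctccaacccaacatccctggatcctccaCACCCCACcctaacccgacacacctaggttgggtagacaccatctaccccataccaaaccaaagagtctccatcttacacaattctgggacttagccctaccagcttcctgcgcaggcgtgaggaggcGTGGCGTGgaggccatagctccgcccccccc
Insig1 (chr5:28071162-28071362, plus strand): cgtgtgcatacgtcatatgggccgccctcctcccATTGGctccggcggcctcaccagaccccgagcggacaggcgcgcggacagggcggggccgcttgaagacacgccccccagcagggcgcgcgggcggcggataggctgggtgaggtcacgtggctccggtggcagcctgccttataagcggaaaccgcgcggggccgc

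**Figure D1:**
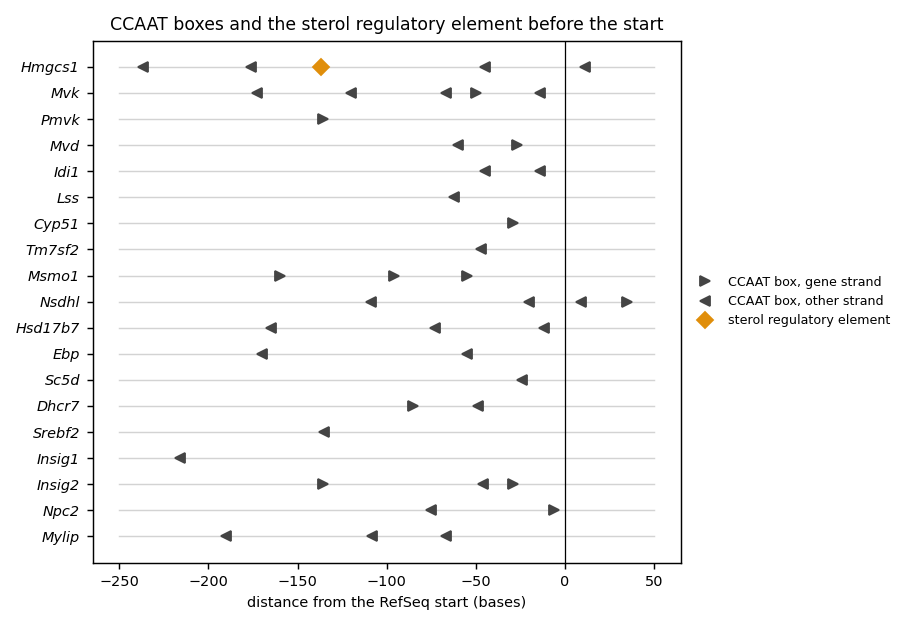
Position of CCAAT boxes (arrowheads, pointing right on the gene strand and left on the other) and of the sterol regulatory element (diamond), by distance in bases from the RefSeq start, in the 19 genes with a match. Hmgcs1, at the top, holds the only diamond, and most CCAAT boxes lie before the start.

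In Hsp20 KO fat 6 of the 29 genes rose and 0 fell at an adjusted p under 0.05: Acat2, Fdps, Fdft1, Lss and Nsdhl, which are enzymes of the route, and Npc1, a carrier of lysosomal cholesterol. The rises were between 1.30-fold and 1.85-fold. Over all 15994 genes tested by edgeR's quasi-likelihood test, 4.23% were called higher and 3.42% lower, against 20.7% and 0% of the 29 genes. The median log2 change was 0.17 over the 29 genes and 0.00061 over all tested genes, and 22 of 29 genes (75.9%) had a positive log2 change, against 50.1% of all tested genes. In 11 genes (37.9%) every Hsp20 KO library lay above every WT library, and in 2 (6.90%) every one lay below, against 16.9% and 15.6% of all tested genes. At an unadjusted p under 0.05, edgeR had 11 of the 29 genes higher and 2 lower, against 13.3% and 12.7% of all tested genes. By DESeq2's Wald test 9 rose and 0 fell, when 7.10% and 6.41% of all tested genes did, and by limma-voom 7 rose and 0 fell, when 4.03% and 3.26% did. Leaving out the library labelled Hsp20 KO replicate 1 gave 9 cholesterol genes higher and 0 lower, beside 5.82% and 4.52% of all tested genes. Leaving out Hsp20 KO replicate 2 gave 1 higher (2.0% of all tested genes), Hsp20 KO replicate 3 gave 2 (2.01%), WT replicate 1 gave 4 (2.0%), WT replicate 2 gave 1 (0.488%) and WT replicate 3 gave 1 (0.464%). Fdft1 was called each time.

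**Figure D2:**
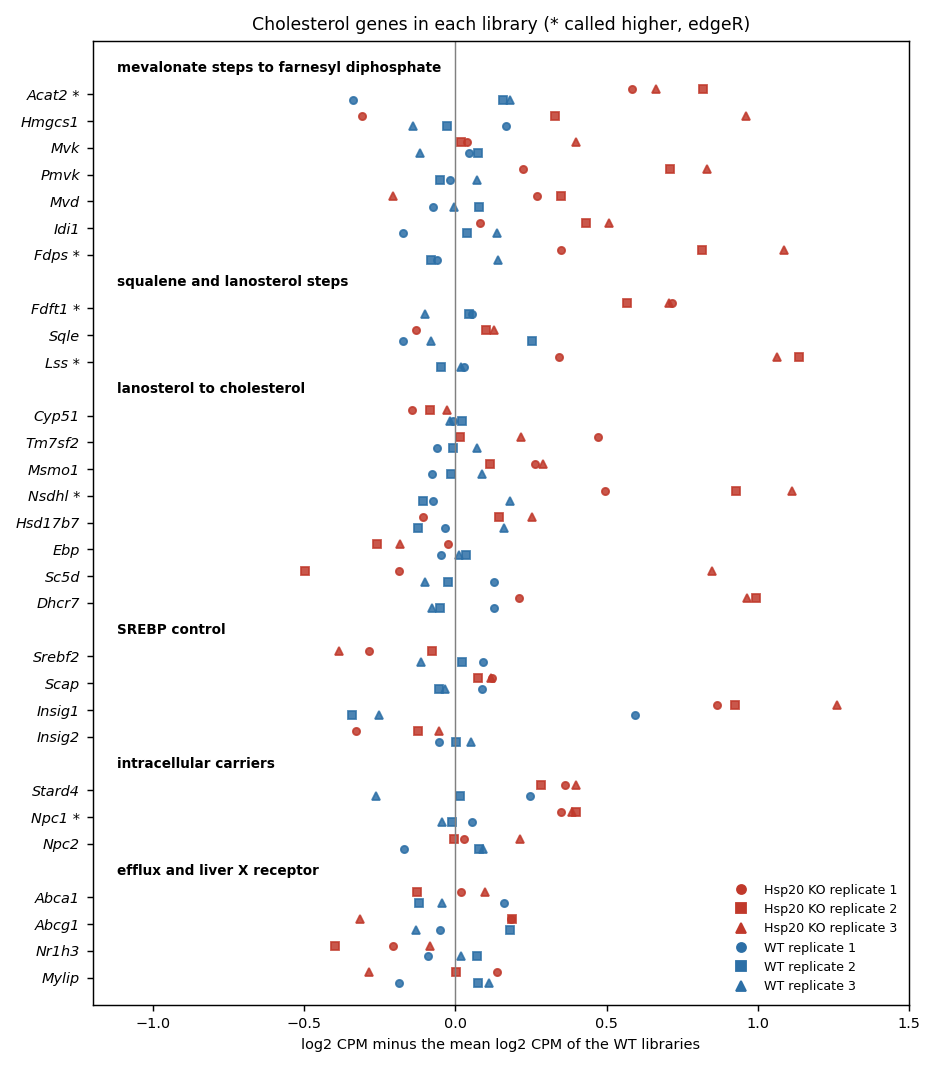
Each of the 29 genes in each of the 6 libraries, as log2 CPM minus the mean log2 CPM of the WT libraries (red, Hsp20 KO; blue, WT; symbols mark the replicate), with stars on the 6 genes called higher. The starred genes have all red symbols to the right of all blue ones, while genes of efflux, at the bottom, have mixed symbols.

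The route begins with Acat2, the cytosolic thiolase that joins 2 acetyl-CoA units (gene ID 110460, chromosome 17, 12943042 to 12960725, minus strand, GRCm38.p6). Acat2 had 153, 180 and 162 CPM in Hsp20 KO replicates 1 to 3, against 80.8, 114 and 116 CPM in WT replicates 1 to 3. The groups did not overlap, and WT replicate 1 was the lowest library. Acat2 rose 1.59-fold (log2 change 0.67 ± 0.15 SE, edgeR adjusted p = 0.0369). Acat2 was called under 9 of the 13 alternatives (adjusted p from 0.00057 to 0.0954). Its close copy Acat3, which lies beside it on chromosome 17 and could share reads with it, had 109, 122 and 115 CPM in Hsp20 KO, against 67.9, 89.8 and 92.9 CPM in WT (log2 change 0.47 ± 0.12 SE, edgeR adjusted p = 0.0608). Reads counted for Acat2 per read counted for Acat3 were 1.40, 1.48 and 1.40 in Hsp20 KO libraries and 1.19, 1.27 and 1.25 in WT libraries. The split between the copies depends on the authors' counting, so the size of the Acat2 change is uncertain.

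Hmgcs1, the synthase that makes HMG-CoA, had the widest spread among Hsp20 KO mice of the first 7 genes. It had 116, 181 and 279 CPM in Hsp20 KO replicates 1 to 3, against 161, 141 and 130 CPM in WT replicates 1 to 3. The groups overlapped, with the library labelled Hsp20 KO replicate 1 below all WT libraries and replicate 3 far above them, and the log2 change of 0.41 ± 0.28 (SE) did not pass (edgeR adjusted p = 0.395). The kinases and the decarboxylase that turn mevalonate into isopentenyl diphosphate came next. Pmvk, phosphomevalonate kinase, had 43.3, 60.6 and 65.9 CPM in Hsp20 KO, against 36.6, 35.7 and 38.9 CPM in WT. Its groups did not overlap and its log2 change was 0.61 ± 0.15 (SE), just short of the threshold (edgeR adjusted p = 0.0503). Pmvk passed without the library labelled Hsp20 KO replicate 1 (edgeR adjusted p = 0.00323, with a range over all alternatives from 0.00323 to 0.154). With every library kept, Pmvk also passed by DESeq2's Wald test, and by edgeR with DESeq2 size factors, upper quartile scaling or no filter. Mvk, mevalonate kinase, averaged 19.7 ± 3.02 CPM in Hsp20 KO and 17.6 ± 1.23 CPM in WT, and Mvd, the decarboxylase, 9.94 ± 1.94 CPM in Hsp20 KO and 8.92 ± 0.469 CPM in WT (SD, n = 3 each). Both overlapped between groups and neither passed (edgeR adjusted p = 0.475 and 0.556).

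Idi1, the isomerase of the isoprene unit, averaged 52.6 ± 7.95 CPM in Hsp20 KO and 41.4 ± 4.45 CPM in WT (SD, n = 3 each; log2 change 0.34 ± 0.13 SE, edgeR adjusted p = 0.151). It was called only when the library labelled Hsp20 KO replicate 1 was left out (edgeR adjusted p = 0.0409, with a range over all alternatives from 0.0409 to 0.301). Fdps, farnesyl diphosphate synthase (gene ID 110196, chromosome 3, 89093588 to 89101967, minus strand), had 35.7, 49.4 and 59.5 CPM in Hsp20 KO replicates 1 to 3, against 26.9, 26.5 and 30.9 CPM in WT replicates 1 to 3. All 3 Hsp20 KO libraries lay above WT, and the one labelled replicate 1 was the nearest to it. Fdps rose 1.71-fold (log2 change 0.77 ± 0.18 SE, edgeR adjusted p = 0.0416). Fdps was called under only 7 of the 13 alternatives (adjusted p from 0.00095 to 0.134). GENCODE annotates 1124 exon bases of Fdps as shared with the same-strand gene Gm43738. In all, 2 of the 7 genes from acetyl-CoA to farnesyl diphosphate were called, and the 7 log2 changes ran from 0.15 to 0.77.

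The committed steps toward sterol showed the steadiest rise of the route, in Fdft1, and no call in its neighbour Sqle. Fdft1, squalene synthase (gene ID 14137, chromosome 14, 63145150 to 63181687, minus strand), had 75.2, 67.7 and 74.6 CPM in Hsp20 KO replicates 1 to 3, against 47.5, 47.2 and 42.6 CPM in WT replicates 1 to 3. The groups lay far apart relative to the spread within each, and the library labelled Hsp20 KO replicate 1 was the highest of the 6. Fdft1 rose 1.58-fold (log2 change 0.66 ± 0.081 SE, edgeR adjusted p = 0.00716) and was called under all 13 alternatives (adjusted p from 1.28e-08 to 0.0481). Its exons overlap those of Ctsb on the opposite strand over 774 bases, and Ctsb had a log2 change of 0.17 ± 0.14 (SE, edgeR adjusted p = 0.502). Sqle, squalene epoxidase and a known control point of the route, had 12.5, 14.7 and 14.9 CPM in Hsp20 KO, against 12.1, 16.3 and 12.9 CPM in WT. Its groups overlapped fully, with a log2 change of 0.021 ± 0.14 (SE, edgeR adjusted p = 0.941).

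Lss, lanosterol synthase (gene ID 16987, chromosome 10, 76531565 to 76557139, plus strand), had 32.2, 55.9 and 53.1 CPM in Hsp20 KO replicates 1 to 3, against 25.9, 24.5 and 25.7 CPM in WT replicates 1 to 3. The WT libraries were nearly level, and the library labelled Hsp20 KO replicate 1 lay between them and the other two. Lss rose 1.85-fold (log2 change 0.89 ± 0.19 SE, edgeR adjusted p = 0.0370). Lss was called under only 7 of the 13 alternatives (adjusted p from 0.00036 to 0.134). Its exons overlap the antisense gene 4930483K19Rik over 381 bases, and since no source used here names the strand setting, reads of overlapping genes cannot be told apart.

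Of the 8 enzymes that turn lanosterol into cholesterol, 1 rose, Nsdhl, and 0 fell. Nsdhl, the dehydrogenase that removes methyl groups from the ring (gene ID 18194, chromosome X, 72918521 to 72958528, plus strand), had 35.8, 48.3 and 54.9 CPM in Hsp20 KO replicates 1 to 3, against 24.1, 23.5 and 28.8 CPM in WT replicates 1 to 3. The groups did not overlap, and the library labelled Hsp20 KO replicate 1 was again the one nearest to WT. Nsdhl rose 1.81-fold (log2 change 0.86 ± 0.16 SE, edgeR adjusted p = 0.0257). Nsdhl was called under 8 of the 13 alternatives (adjusted p from 5.0e-05 to 0.0995). Cyp51, the lanosterol demethylase that opens this stage, had 26.1, 27.2 and 28.3 CPM in Hsp20 KO, against 28.7, 29.3 and 28.5 CPM in WT. Every Hsp20 KO library of Cyp51 lay below WT by a small margin, and the log2 change of -0.085 ± 0.072 (SE) did not pass (edgeR adjusted p = 0.503).

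Dhcr7, the reductase of the last step, had 18.0, 31.0 and 30.4 CPM in Hsp20 KO replicates 1 to 3, against 17.0, 15.01 and 14.7 CPM in WT replicates 1 to 3. Its groups did not overlap, but the library labelled Hsp20 KO replicate 1 lay close to WT, and the log2 change of 0.76 ± 0.20 (SE) did not pass (edgeR adjusted p = 0.0617). Dhcr7 passed without that library (edgeR adjusted p = 0.00246, with a range over all alternatives from 0.00246 to 0.199). With every library kept, Dhcr7 also passed by DESeq2's Wald test (adjusted p = 0.00584) and by edgeR with no filter (adjusted p = 0.0443). Sc5d, the desaturase before it, had 50.3, 40.5 and 103 CPM in Hsp20 KO, against 62.5, 56.2 and 53.3 CPM in WT. A single library, Hsp20 KO replicate 3, lay far above all others, and without it the log2 change of Sc5d was -0.33 (edgeR adjusted p = 0.177), against 0.16 ± 0.31 (SE) with it (edgeR adjusted p = 0.781). Msmo1, the methylsterol oxidase, had 20.5, 18.5 and 20.9 CPM in Hsp20 KO and 16.2, 16.9 and 18.1 CPM in WT, with no overlap, and did not pass (edgeR adjusted p = 0.181). The reductases Tm7sf2 and Hsd17b7 and the isomerase Ebp overlapped between groups, with log2 changes of 0.25, 0.091 and -0.15 (edgeR adjusted p from 0.307 to 0.736).

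**Figure D3:**
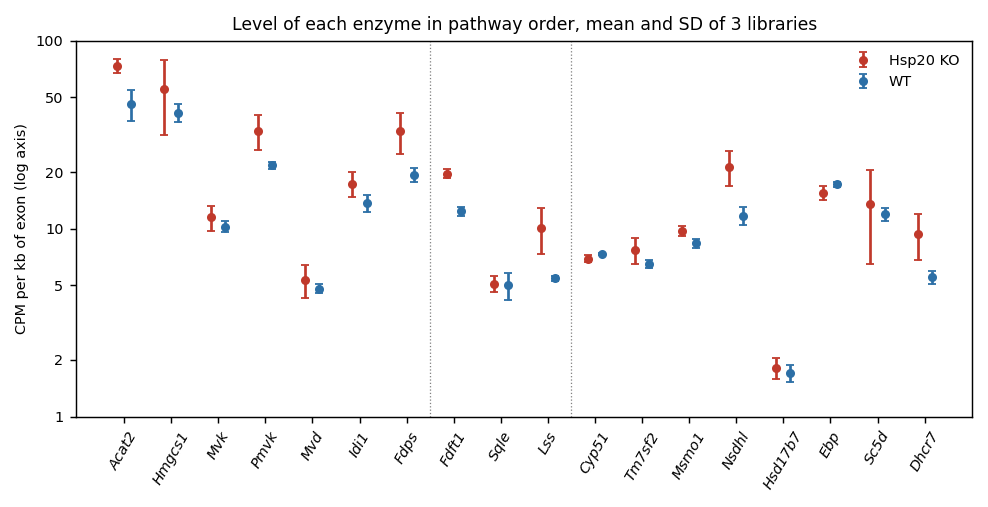
Level of the 18 enzymes in the order of the route, as CPM per kb of exon on a log axis, with the mean and SD of 3 libraries for Hsp20 KO (red, left) and WT (blue, right); dotted lines part the mevalonate steps, the squalene and lanosterol steps and the later steps. Acat2 has the highest mean of both groups and Hsd17b7 the lowest.

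Per length, as CPM per kb of RefSeq-supported exon, the levels of the enzymes spanned a wide range in both groups. Acat2 had the highest mean level of the 18 enzymes, 73.4 ± 6.19 CPM per kb in Hsp20 KO and 46.0 ± 8.77 in WT (SD, n = 3 each). Hmgcs1 followed with 55.2 ± 23.6 CPM per kb in Hsp20 KO and 41.4 ± 4.49 in WT, a level whose spread overlaps that of Acat2 in both groups. Sqle was low, at 5.08 ± 0.487 CPM per kb in Hsp20 KO and 4.99 ± 0.803 in WT, and Hsd17b7, at 1.82 ± 0.227 CPM per kb in Hsp20 KO and 1.70 ± 0.174 in WT, was the lowest enzyme. Within each library, the level of Fdft1 over that of Sqle, both per kb, was 4.49, 3.45 and 3.73 in Hsp20 KO replicates 1 to 3 and 2.92, 2.16 and 2.46 in WT replicates 1 to 3. The level of Lss over that of Cyp51 was 1.04, 1.73 and 1.58 in Hsp20 KO and 0.761, 0.706 and 0.761 in WT. Neither ratio overlapped between groups. Each set a gene called higher over a gene that was not called, so this separation adds nothing to the calls.

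None of the 4 genes that control SREBP was called by edgeR with all 6 libraries and its filter on low counts. Insig1 was called under some of the alternatives. Insig1, an endoplasmic reticulum anchor of Scap and itself a known SREBP target, had the highest log2 change of the 29 genes, 0.96 ± 0.25 (SE, edgeR adjusted p = 0.0581). It had 213, 222 and 280 CPM in Hsp20 KO replicates 1 to 3, against 176, 92.2 and 98.2 CPM in WT replicates 1 to 3. The groups did not overlap, but WT replicate 1 stood well above the other WT libraries, and without it Insig1 was called (log2 change 1.32, edgeR adjusted p = 0.0112). Insig1 was also called by DESeq2's Wald test (adjusted p = 0.00151), by limma-voom (adjusted p = 0.0494) and by edgeR with no filter on low counts (adjusted p = 0.0399), and the range over all alternatives was 0.00151 to 0.196. WT replicate 1 also had a summed level of 6 skeletal muscle markers of 701 CPM, against 49.4 to 79.2 CPM in Hsp20 KO libraries and 74.5 and 99.6 CPM in the other WT libraries, and the part of muscle RNA in the Insig1 value was not tested. Insig2, the paralogue of Insig1, had 37.4, 43.0 and 45.2 CPM in Hsp20 KO, against 45.2, 47.0 and 48.6 CPM in WT. All Hsp20 KO libraries of Insig2 lay below WT, though the highest of them all but met the lowest WT library, and the log2 change of -0.17 ± 0.090 (SE) did not pass (edgeR adjusted p = 0.284). Within each library, Insig1 over Insig2, both per kb, was 6.24, 5.65 and 6.78 in Hsp20 KO and 4.27, 2.15 and 2.21 in WT.

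Srebf2 had 90.6, 105 and 84.4 CPM in Hsp20 KO replicates 1 to 3, against 118, 112 and 102 CPM in WT replicates 1 to 3. The groups overlapped slightly, and the log2 change of -0.25 ± 0.10 (SE), the lowest of the 29 genes, did not pass (edgeR adjusted p = 0.173). Scap averaged 61.7 ± 1.10 CPM in Hsp20 KO and 57.4 ± 3.09 CPM in WT (SD, n = 3 each; edgeR adjusted p = 0.407).

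**Figure D4:**
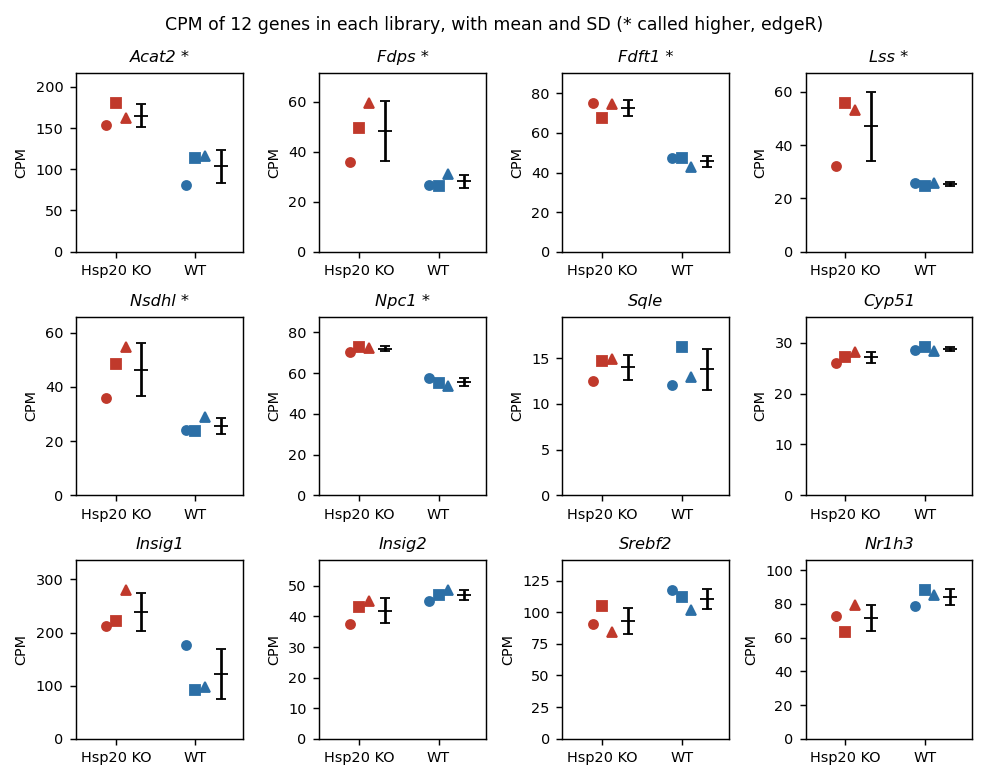
CPM of 12 genes in each Hsp20 KO library (red, left) and WT library (blue, right), with the mean and SD of 3 libraries in black and stars on the 6 genes called higher. Fdft1 and Npc1 have tight groups that lie apart, Lss and Nsdhl have a library labelled Hsp20 KO replicate 1 (circle) nearest to WT, and Insig1 has a high WT replicate 1.

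Among the carriers within the cell, Npc1 rose and Npc2 and Stard4 were not called. Npc1, the membrane protein that exports cholesterol from lysosomes (gene ID 18145, chromosome 18, 12189694 to 12236506, minus strand), had 70.5, 73.0 and 72.4 CPM in Hsp20 KO replicates 1 to 3, against 57.6, 54.9 and 53.8 CPM in WT replicates 1 to 3. The spread within each group was small beside the gap between them. Npc1 rose 1.30-fold (log2 change 0.38 ± 0.068 SE, edgeR adjusted p = 0.0226). Npc1 was called under 9 of the 13 alternatives (adjusted p from 0.00030 to 0.115). Its exons overlap those of Rmc1 on the opposite strand over 511 bases, and Rmc1 had a log2 change of 0.38 ± 0.12 (SE, edgeR adjusted p = 0.0894). Npc2, the soluble protein of the lysosome that hands cholesterol to Npc1, was the most abundant of the 29 genes, at 145 ± 12.2 CPM per kb in Hsp20 KO and 138 ± 13.7 CPM per kb in WT (SD, n = 3 each), and overlapped between groups (log2 change 0.078 ± 0.12 SE, edgeR adjusted p = 0.720). Stard4, a cytosolic sterol carrier, had 9.04, 8.56 and 9.28 CPM in Hsp20 KO and 8.35, 7.11 and 5.87 CPM in WT. Its groups did not overlap, by a narrow margin, and the change did not pass (edgeR adjusted p = 0.215).

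None of the 4 genes of sterol export and of the liver X receptor was called. Abca1, which loads cholesterol onto lipid-poor apolipoproteins, had 210, 190 and 221 CPM in Hsp20 KO replicates 1 to 3, against 232, 191 and 201 CPM in WT replicates 1 to 3 (log2 change -0.0064 ± 0.10 SE, edgeR adjusted p = 0.977). Abcg1, which passes cholesterol to HDL, averaged 80.4 ± 15.1 CPM in Hsp20 KO and 78.6 ± 8.99 CPM in WT, and Mylip, a ubiquitin ligase for lipoprotein receptors, 83.3 ± 12.2 CPM in Hsp20 KO and 85.9 ± 9.33 CPM in WT (SD, n = 3 each). Nr1h3, the liver X receptor alpha, had 72.6, 63.6 and 79.1 CPM in Hsp20 KO, against 78.7, 88.2 and 84.9 CPM in WT, with a log2 change of -0.23 ± 0.097 (SE, edgeR adjusted p = 0.188, unadjusted p = 0.0481). The groups of all 4 genes overlapped, and Nr1h3 was the only one of them with an unadjusted p under 0.05. Macrophages also express these genes, and all 12 macrophage markers examined had negative log2 changes, with 0 called by edgeR and 6 lower at an unadjusted p under 0.05, against 12.7% of all tested genes. DESeq2's Wald test called 4 of the 12 lower, against 6.41% of all tested genes. Without the library labelled Hsp20 KO replicate 1, edgeR called 5 lower, against 4.52% of all tested genes. In that fit 10 were lower at an unadjusted p under 0.05, against 13.2% of all tested genes. The summed level of the 12 markers was 1598 to 2046 CPM in Hsp20 KO and 1943 to 2208 CPM in WT, and none was at 0. The part of macrophage RNA in these 4 genes was not tested.

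**Figure D5:**
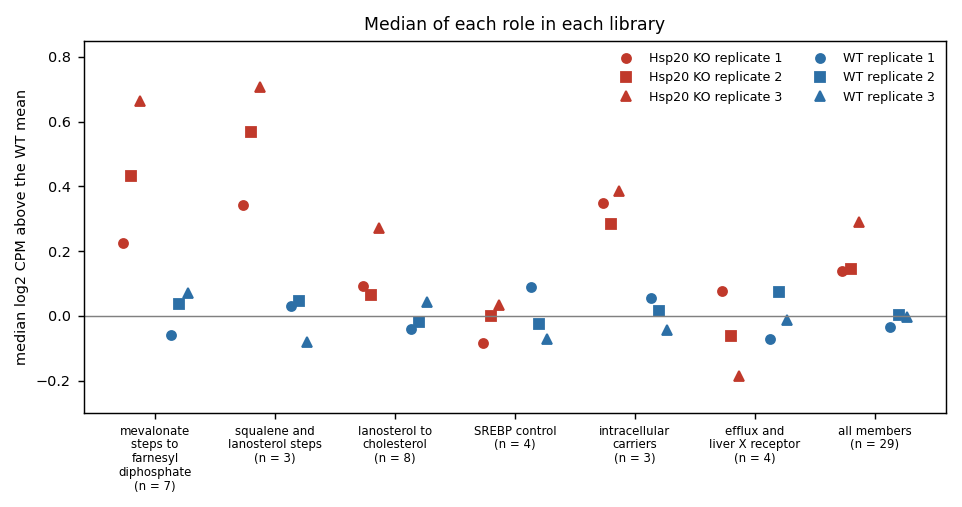
Median over the genes of each role of log2 CPM minus the WT mean, in each of the 3 Hsp20 KO libraries (red, left) and 3 WT libraries (blue, right), with the number of genes under each role. The red symbols lie above the blue ones for the mevalonate steps, the squalene and lanosterol steps, the later steps and the carriers, and mix with them for SREBP control and for efflux.

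By role, the medians over genes lay higher in every Hsp20 KO library than in every WT library for the 3 stages of the route and for the carriers, and overlapped for SREBP control and for efflux. Of single genes, 16.9% of all tested were separated in this direction. Each of the separated roles holds genes called higher, and a median over 3 genes is the value of 1 gene, so this separation adds nothing to the calls. For the 7 mevalonate genes the median log2 CPM lay 0.23, 0.43 and 0.66 above the WT mean in Hsp20 KO replicates 1 to 3, against -0.060, 0.037 and 0.071 in WT replicates 1 to 3. For the squalene and lanosterol steps it lay 0.34, 0.57 and 0.71 above in Hsp20 KO, against 0.030, 0.045 and -0.081 in WT. In both roles the library labelled Hsp20 KO replicate 1 was the lowest of its group and still above WT. For the 8 later enzymes the values were 0.093, 0.064 and 0.27 in Hsp20 KO and -0.042, -0.019 and 0.042 in WT. For the 3 carriers they were 0.35, 0.28 and 0.39 in Hsp20 KO and 0.056, 0.016 and -0.043 in WT. The 4 efflux and receptor genes had 0.078, -0.063 and -0.19 in Hsp20 KO and -0.072, 0.074 and -0.013 in WT, which overlap. Summed over all 29 genes, 2151, 2293 and 2596 CPM were counted in Hsp20 KO and 1977, 1968 and 1957 CPM in WT.

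Beyond the 29 genes, 44 other genes of sterol enzymes, uptake, esters, carriers, oxysterols and sterol sensing were tested, of which 3 rose (6.82%) and 1 fell (2.27%), shares near the 4.23% and 3.42% of all tested genes. Cyb5r3, a reductase that passes electrons to sterol enzymes, averaged 195 ± 27.8 CPM in Hsp20 KO and 133 ± 2.25 CPM in WT (SD, n = 3 each; edgeR adjusted p = 0.0283). Cyp27a1, a mitochondrial sterol hydroxylase, averaged 43.7 ± 2.39 CPM in Hsp20 KO and 32.5 ± 2.11 CPM in WT (edgeR adjusted p = 0.0279), and Abca2, a transporter linked to intracellular sterol, 145 ± 11.7 CPM in Hsp20 KO and 108 ± 9.67 CPM in WT (edgeR adjusted p = 0.0414). Ncor1, a corepressor of nuclear receptors, fell to 250 ± 10.1 CPM in Hsp20 KO, against 352 ± 41.1 CPM in WT (edgeR adjusted p = 0.0373). Without the library labelled Hsp20 KO replicate 1, 5 of the 44 rose and 1 fell, and all 4 named genes stayed called (edgeR adjusted p = 0.00774 for Cyb5r3, 0.0215 for Cyp27a1, 0.0243 for Abca2 and 0.0413 for Ncor1). Leaving out Hsp20 KO replicate 3 kept Cyb5r3 (edgeR adjusted p = 0.0407) as the only one of the 4 called, leaving out WT replicate 1 kept only Cyp27a1 (edgeR adjusted p = 0.0498), and leaving out Hsp20 KO replicate 2, WT replicate 2 or WT replicate 3 kept none of the 4. Without WT replicate 2, 0 of the 44 passed in edgeR, where the unadjusted p was under 0.05 for 6 with a positive and 5 with a negative log2 change, against 10% and 10.2% of all tested genes. In the neighbouring route that also starts from cytosolic acetyl-CoA, 11 of 15 fatty acid synthesis genes (73.3%, against 4.23% of all tested genes) rose and 0 fell. Their median log2 change was 1.15 and that of the 29 cholesterol genes 0.17, and the difference between the lists was not tested. Of the 15, 4 rose when WT replicate 2 or WT replicate 3 was left out, when 0.488% and 0.464% of all tested genes did. Srebf1 encodes the SREBP of fatty acid synthesis. It had 563, 434 and 571 CPM in Hsp20 KO and 349, 385 and 368 CPM in WT, with no overlap. By edgeR with every library kept it was just short of a call (log2 change 0.51 ± 0.13 SE, edgeR adjusted p = 0.0564), and its calls under the alternatives are not given here.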

How the data were processed

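Each mouse had 1 column of read counts per gene, deposited by the authors as whole numbers without normalization. Of tools and builds, the submitters' processing notes give bcl2fastq, CASAVA 1.8, TopHat, DESeq, mm10 and GRCm38. No source used here gives the read counter, its annotation or its use of strand. Names in the labels tied columns to samples, and a RefSeq table of GRCm38.p6 gave symbols for 24334 of the 24415 gene IDs. Libraries held 14078936 to 32648746 counts. Among the 29 genes the lowest count was 104 (Mvd), a counting error of 9.81%. Replicate libraries differed by more than sampling noise (chi-square over degrees of freedom 17.0 or more for each pair). The labels do not say whether mice were littermates, and p-values set the difference between groups against the spread between these mice.

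All genes were fitted in edgeR 4.0.16 (R 4.3.3) with a single term for genotype. Genes were kept by filterByExpr (count of 10, total of 15), scaled by TMM and tested by the quasi-likelihood F test. P-values were adjusted by Benjamini-Hochberg over the 15994 genes tested, and under 0.05 a gene was called. The SE was taken from the F statistic. Level per kb divides CPM by the union of exons of RefSeq-supported GENCODE M21 transcripts. The fit was tested on simulated data. Alternatives were DESeq2 1.42.0 and its size factors, upper quartile scaling, other filters, limma-voom (limma 3.58.1), a replicate block and leaving out each library. All 29 genes are named, with each library's value for those called or not overlapping, and of the other sterol genes those called. Ctsb, Rmc1, Acat3 and Srebf1 were named after their values were seen. The 29 genes and the lists were chosen with earlier results of these data known. Figures were drawn with matplotlib 3.10.9.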

Additional observations from a re-analysis of the deposited data

How the results depend on the processing

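Over 13 alternatives, 325 of 377 single-gene results kept their direction and their side of the threshold. With the 6 libraries kept, the count of cholesterol genes called higher was 6 to 9 under other scalings, filters and tools, and 3 with the replicate block. Deviations of same-numbered mice from their group means had correlations of -0.038, 0.092 and -0.096, which neither shows nor excludes a pairing by replicate number. With the block, 226 genes were called higher (1.41%) and 169 lower in the whole table. In that fit 0 of the other sterol genes were higher and 0 lower (6 and 5 at an unadjusted p under 0.05), and 7 of 15 fatty acid synthesis genes were higher. The DESeq2 test called 1135 and 1024 genes in the whole table, against 676 and 547 by edgeR, and 5 and 2 other sterol genes, and 2 fell with no filter. Leaving out 1 library gave 1 to 9 cholesterol genes higher, a median log2 change of 0.18 to 0.28, 75 to 941 and 53 to 730 genes in the whole table, and 0 to 5 and 0 to 1 other sterol genes. Directions turned only in genes that were never called: Abca1 (0.0081 with upper quartile scaling, and -0.065 to 0.072 with 1 library left out), and, with 1 library left out, Abcg1 (-0.044 to 0.19), Mylip (-0.14 to 0.074), Npc2 (-0.010 to 0.12), Sc5d (-0.33 to 0.41) and Sqle (-0.070 to 0.16). The cause was not tested. Among the 29 genes the smallest called log2 change was 0.38, in Npc1, and with 3 mice a group a p that missed the threshold does not show that levels were alike.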

Other observations

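The 6 called genes differed in where the library labelled Hsp20 KO replicate 1 lay. On a scale of CPM where 0% is the mean of WT and 100% the mean of Hsp20 KO replicates 2 and 3, it lay at 23.4% for Lss, 28.8% for Fdps, 39.4% for Nsdhl, 73.4% for Acat2, 87.2% for Npc1 and 116% for Fdft1. The difference between these genes was not tested. Hsp20 KO replicate 3, the library with the fewest counts, held the highest CPM of 12 of the 29 genes, against 6 and 4 for Hsp20 KO replicates 2 and 1, and 2, 4 and 1 for WT replicates 1 to 3. It held the lowest CPM of 4 genes.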
